A study of Homo sapiens with 24 samples.

Results

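The genes described here are interferon-stimulated genes (ISGs), a list of 49 human genes out of the 61860 gene identifiers in the count tables, each found by its symbol in all 4 tables. The list was put together by name, with earlier results of these same libraries in view, among them higher interferon response genes after knockdown of YY2. The genes were therefore chosen by the treated against control differences that follow, and those differences are given as descriptions of each gene: an adjusted p stands only for that gene in a fit over all genes, and counts over the list support nothing about the list.

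Interferons are secreted cytokines that cells release when they sense viral or misplaced nucleic acids. Type I and type III interferons bind surface receptors whose kinases, JAK1 and TYK2, phosphorylate STAT2. STAT2 and IRF9 are subunits of the complex ISGF3, which binds the interferon-stimulated response element (ISRE) in front of ISGs, whereas interferon gamma acts mainly through the gamma-activated sequence. Epithelial tumor cells often keep a basal level of ISG expression without added interferon.

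All libraries came from OE33, a human esophageal adenocarcinoma (EAC) cell line, with 3 libraries per group. In the first experiment OE33 cells were grown as subcutaneous xenografts in male BALB/c-nu mice on HFD, a diet high in fat, or on ND, the normal diet. The mice were 4 weeks old at the start, ate their diet for 8 weeks and carried tumors for 3 weeks. Neither the labels nor the study's methods say whether the 3 libraries per group came from 3 mice. Nude mice lack mature T cells but keep macrophages, NK cells and B cells. In the cultures, cells received a plasmid for HA-TRIM15, a tagged E3 ubiquitin ligase, or empty vector (EV) for 48 h. In the knockdowns, cells received shYY2, against a zinc finger transcription factor, or shFOXRED1, against an assembly factor of mitochondrial complex I, each beside its own shControl, for 72 h. The labels give no donor, passage or hairpin for any culture, so all results concern 1 cell line. The study asked how a high-fat diet acts on EAC cells through TRIM15, and each treated group was compared with its own control.

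The ISRE core was searched first, because it is the element through which ISGF3 acts. The members were listed by name as ISGs, in front of which this element lies, so its share is no test of the list. RefSeq start-site windows (GRCh38.p14) were matched for 40 of the 49 members, and the core was written as GAAANNGAA on either strand of the 250 bases before the start. It was present for 27 of 40 members (67.5%) and for 2295 of 27305 genes in all (8.41%). CMPK2 and RSAD2, and likewise DTX3L and PARP9, have windows that overlap on opposite strands, and 25 of the other 36 members held the core. No window was matched for IRF7, UBA7, USP18, IFIT2, IFITM2, MX2, GBP2, OASL and PARP10. The gamma-activated core TTCNNNGAA was present for 12 of 40 members (30%) against 8.09% of all genes. The letters GCCATNTT, a core bound by YY1 and YY2, were present for 2 of 40 members (5%), CXCL10 and PARP12, against 4.71% of all genes. Each motif was counted on its own, whether or not its matches overlapped those of another. A match is a description of these letters only. The stretches printed here, 5′ to 3′ on the strand of the gene, belong to members whose changes are described further on, with the matched core, or overlapping cores, in capitals. ISG15 lies at chr1:1013381-1013420, IFIT1 at chr10:89392506-89392545, BST2 at chr19:17405730-17405769 on the minus strand, HERC5 at chr4:88457031-88457070, GBP1 at chr1:89065310-89065349 on the minus strand, ISG20 at chr15:88638932-88638971, SAMD9 at chr7:93118091-93118130 on the minus strand, DDX60 at chr4:168318781-168318820 on the minus strand and DDX60L at chr4:168480518-168480557 on the minus strand.
ISG15: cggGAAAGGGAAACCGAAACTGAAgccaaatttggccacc
IFIT1: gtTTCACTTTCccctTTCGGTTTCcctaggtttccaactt
BST2: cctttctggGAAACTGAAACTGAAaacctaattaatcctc
HERC5: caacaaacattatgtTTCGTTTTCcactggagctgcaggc
GBP1: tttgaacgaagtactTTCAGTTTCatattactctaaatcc
ISG20: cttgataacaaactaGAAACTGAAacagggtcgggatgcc
SAMD9: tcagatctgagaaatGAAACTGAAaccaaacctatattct
DDX60: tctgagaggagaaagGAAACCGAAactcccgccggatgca
DDX60L: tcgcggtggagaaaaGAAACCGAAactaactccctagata
IFIT1, HERC5 and GBP1 carry the core on the opposite strand, so that it reads TTC first. HERC6, the neighbour of HERC5, had a window without the core, as did STAT2, IRF1, IRF9, UBE2L6, CMPK2, SAMD9L, DTX3L, IFI35, SP100, SP110, CXCL11 and XAF1. The counts of calls for members with and without the core are given as a description, and all genes were not split by the core. Of all genes tested, 36.8% were higher and 38.1% lower with shYY2, and 12.5% and 9.53% with HA-TRIM15. With HFD these shares were 25.6% and 23.9%, and with shFOXRED1 16.8% and 19.7%. With shYY2, 18 of 27 with the core rose and 5 fell, and 9 of 13 without it rose and 2 fell. With HA-TRIM15, 11 of 27 with the core rose and 0 fell, and 2 of 13 without it rose and 1 fell. With HFD these counts were 18 of 27 and 1, and 7 of 13 and 1. With shFOXRED1 they were 18 of 26 and 1 with the core, and 12 of 12 and 0 without it.

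Total counts per library ran from 14299807 to 45994561, and the 49 members together took 0.3828% to 1.223% of them. The targeted genes followed the labels. TRIM15 had 111, 130 and 181 counts with HA-TRIM15 and 0 in each EV library, and YY2 had 11, 12 and 11 counts with shYY2 against 43, 40 and 46 with its shControl. FOXRED1 had 183, 207 and 129 counts with shFOXRED1 against 322, 259 and 254, a log2 fold change of -0.78. In the xenografts TRIM15 had 14, 12 and 24 counts on HFD and 1, 0 and 0 on ND. Epithelial and OE33 markers stood at 7 of 9 with at least 1 CPM, a count scaled to a common library size, in every group, while CDX1 and TFF3 were at 0 in both diets. Of 10 leukocyte markers, only ITGAM and CD14 reached 1 CPM in the tumors, and of 7 fibroblast markers only COL1A1 and ACTA2, all 4 of which also reached it in the YY2 cultures. The summed leukocyte level was 14.7 to 14.8 CPM on HFD and 15.7 to 17.1 CPM on ND, and C1QA, C1QB and NKG7 were at 0 in both. The summed fibroblast level was 44.7 to 46.5 CPM with shYY2 and 11.7 to 12.7 CPM with its shControl, 39.6 to 42.5 with shFOXRED1 and 26.2 to 26.9 with its shControl, and 25.3 to 29.1 on HFD and 32.8 to 35.5 on ND. Its part in the results was not tested. How mouse reads were handled is not given in the sources used here, and in bulk tumors fewer cells of a type and less RNA per cell cannot be told apart.

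Members were expressed in the control groups, whose cultures had received EV or shControl, at levels that differed strongly between the experiments. Averaged over the 46 members tested in every experiment, log2(CPM + 1) was 5.344, 5.346 and 5.336 in the EV libraries, the lowest of the controls. It was 5.909, 5.843 and 5.816 in the shControl libraries of the YY2 experiment, 6.095, 6.1 and 6.07 in ND xenografts, and 6.594, 6.559 and 6.559 in the shControl libraries of the FOXRED1 experiment. The control groups did not overlap on this scale. Experiment, batch, construct, time after transfection and, for the xenografts, growth in a mouse cannot be told apart. Each treated group lay above its own control without overlap: 6.339, 6.296 and 6.266 on HFD, 5.42, 5.427 and 5.498 with HA-TRIM15, 6.291, 6.291 and 6.281 with shYY2, and 7.078, 7.072 and 7.045 with shFOXRED1. The list was chosen by such differences, so these steps are a description only. The median over all genes tested in every experiment was 4.741 to 4.743 on HFD and 4.711 to 4.722 on ND. It was 4.701 to 4.729 with HA-TRIM15 and 4.722 to 4.734 with EV. With shYY2 it was 4.676 to 4.688 against 4.729 to 4.735, and with shFOXRED1 4.624 to 4.65 against 4.672 to 4.691.

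**Figure D1:**
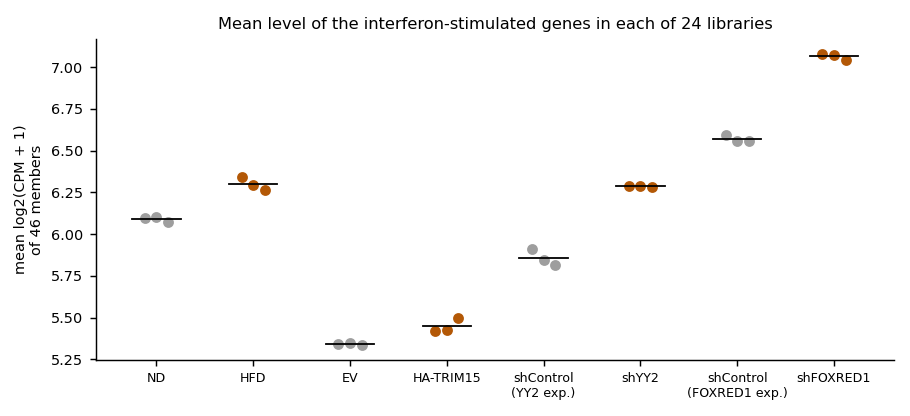
Mean log2(CPM + 1) of the 46 members tested in every experiment (vertical axis) for each of the 24 libraries by group, with points for libraries and bars for group means. The 4 control groups lie between 5.336 and 6.594, a wider range than any step from a control to its treated group.

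Per kilobase of exon, the antiviral modifier ISG15 and LGALS3BP, a secreted glycoprotein, led the ND tumors with 245 ± 21.1 and 189 ± 6.78 CPM per kb (SD, n = 3). LGALS3BP led the EV cultures with 136 ± 1.15 CPM per kb and the shControl cultures of the FOXRED1 experiment with 279 ± 8.4. In those FOXRED1 shControl cultures the mitochondrial protein gene IFI6 was at 161 ± 8.05 CPM per kb, a gene outside the first 8 in the other control groups. ISG15 and LGALS3BP were close to each other in EV cultures, at 126 ± 2.43 and 136 ± 1.15 CPM per kb, and no test was made between genes.

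The counts of members by call differed between the experiments. With HFD, 28 of 49 members tested rose and 2 fell (adjusted p under 0.05, edgeR's quasi-likelihood test), where 25.6% of all 17012 genes tested were higher and 23.9% lower. With HA-TRIM15, 16 of 48 were higher and 2 lower, where 12.5% of all genes were higher and 9.53% lower. With shYY2, 33 of 49 were higher and 9 lower, where 36.8% of all genes were higher and 38.1% lower. With shFOXRED1, 38 of 46 were higher and 1 lower, where 16.8% of all genes were higher and 19.7% lower. The median log2 fold change of the members was 0.19, 0.09, 0.36 and 0.51 in that order, with the median of all genes between -0.01 and 0.01. No called member reached a fold of 2 with HFD or HA-TRIM15, whereas 8 did with shYY2 and 5 with shFOXRED1. The share of all genes at that fold was not computed. The median absolute log2 fold change of all genes was 0.21 with HFD, 0.13 with HA-TRIM15, 0.47 with shYY2 and 0.24 with shFOXRED1. The counts at that fold therefore describe each experiment on its own. GBP2, IFIT1, IFIT3, IRF1, PARP14 and PLSCR1, 6 members in all, were called higher in all 4 experiments. For that count no share of all genes was computed, and some of these calls were lost when 1 library was left out. IFIT1 lost its call on HFD without HFD replicate 1 (log2 fold change 0.11) or replicate 2 (0.10). With HA-TRIM15 it lost it without EV replicate 1 (0.11) or 3 (0.16), or HA-TRIM15 replicate 2 (0.16) or 3 (0.13). PARP14 lost its call with HA-TRIM15 without EV replicate 3 (0.13). PLSCR1 lost its call with HA-TRIM15 without EV replicate 1 (0.11), 2 (0.09) or 3 (0.11), or HA-TRIM15 replicate 2 (0.10) or 3 (0.09), and also by DESeq2's Wald test (0.11), with its size factors (0.11) and without a count filter (0.09).

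**Figure D2:**
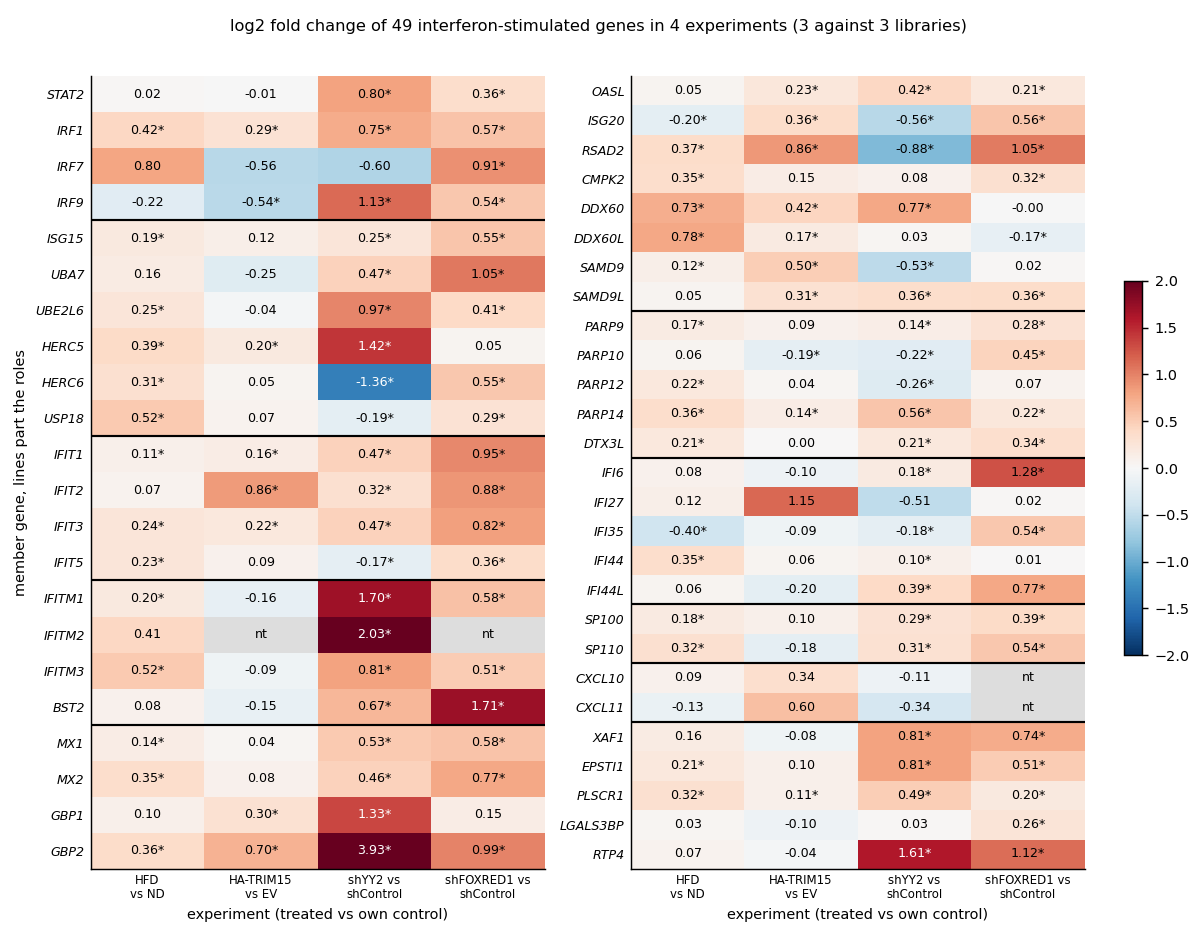
log2 fold change of each of the 49 members (rows, grouped by role) in the 4 experiments (columns), with blue for lower and red for higher, an asterisk for an adjusted p under 0.05 and nt for not tested. GBP2 with shYY2, at 3.93, is beyond the colour scale, which ends at -2 and 2.

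The signal transducers and transcription factors of the pathway rose most broadly in the knockdowns. IRF1, an activator of ISGs and of antigen presentation genes, was at 203, 203 and 195 CPM on HFD and 155, 159 and 135 on ND (log2 fold change 0.42 ± 0.05, SE). With HA-TRIM15 it was at 65.9, 61.1 and 63.3 CPM against 49.9, 48.9 and 56.7, with shYY2 at 178, 178 and 173 against 104, 105 and 106, and with shFOXRED1 at 153, 149 and 137 against 102, 99.3 and 94. In no experiment did the IRF1 groups overlap. STAT2, the ISGF3 subunit, was at 115, 120 and 114 CPM with shYY2 against 65.3, 67.7 and 67.4 (0.80 ± 0.03), and rose by a smaller 0.36 ± 0.06 with shFOXRED1. Its groups overlapped on the diets (0.02 ± 0.04) and with HA-TRIM15 (-0.01 ± 0.04). IRF9, the DNA-binding subunit of ISGF3, was low in the OE33 libraries: 6.39, 6.84 and 6.87 CPM with shYY2 against 3.46, 2.6 and 3.08 (1.13 ± 0.13), and 19.9, 16.5 and 17.6 with shFOXRED1 against 13.2, 12.5 and 11.4 (0.54 ± 0.11). With HA-TRIM15 it fell, from 3.55, 3.03 and 3.22 CPM to 2.39, 1.89 and 2.4 (-0.54 ± 0.16, adjusted p = 0.0222), a call that was lost without EV replicate 1 (-0.49), without EV replicate 3 (-0.56) or without HA-TRIM15 replicate 2 (-0.44). IRF7, which amplifies interferon production, scattered widely, with 11.6, 2.29 and 2.1 CPM on HFD against 2.29, 3.68 and 2.65. With the count filter, all libraries and no block it passed with shFOXRED1 and in no other of the 4 experiments, at 7.88, 9.36 and 5.95 CPM against 4.95, 3.05 and 4.35 (0.91 ± 0.20), and its log2 fold change on HFD was 0.80 with all libraries and 1.28 without HFD replicate 3 (adjusted p = 0.0115). Without a count filter IRF7 was called on HFD (0.80, adjusted p = 6.13e-08) and with shYY2 (-0.61, adjusted p = 0.000277).

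The ISG15 pathway joins a ubiquitin-like protein to its targets, with UBA7 as activating, UBE2L6 as conjugating and HERC5 as ligating enzyme, and USP18 removes it again. ISG15 was at 274, 267 and 269 CPM on HFD against 239, 255 and 214 on ND, and rose by 0.19 ± 0.05 on the log2 scale. It rose by 0.25 ± 0.04 with shYY2 and by 0.55 ± 0.07 with shFOXRED1, where it was at 203, 217 and 173 CPM against 135, 138 and 131. Of the enzymes, UBE2L6 was at 121, 114 and 122 CPM with shYY2 against 59.3, 56.6 and 65.9 (0.97 ± 0.05), and UBA7 at 29, 28 and 25 CPM with shFOXRED1 against 13.9, 11.5 and 14.1 (1.05 ± 0.11). HERC5 was at 271, 278 and 283 CPM with shYY2 against 106, 103 and 103, a fold of 2.68 (adjusted p = 2.52e-15). Its neighbour HERC6 went the other way, at 33.2, 31.6 and 29.6 CPM against 82.9, 79.4 and 79.9, a log2 fold change of -1.36 ± 0.05 (adjusted p = 3.39e-13). With shFOXRED1 HERC5 did not pass (40.4, 40.6 and 38.7 CPM against 36.5, 39.5 and 39.4) and HERC6 rose by 0.55 ± 0.07. USP18 rose with HFD, from 18.6, 18.2 and 16.4 CPM to 25.1, 25.2 and 26.1, and with shFOXRED1 by 0.29 ± 0.07. With shYY2 it was at 21.2, 21.2 and 19.8 CPM against 24.1, 23.3 and 23.5, lower by the test (-0.19), a call that was lost without shYY2 replicate 3 (-0.16, adjusted p = 0.0522) and by DESeq2's Wald test (-0.18, adjusted p = 0.079).

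**Figure D3:**
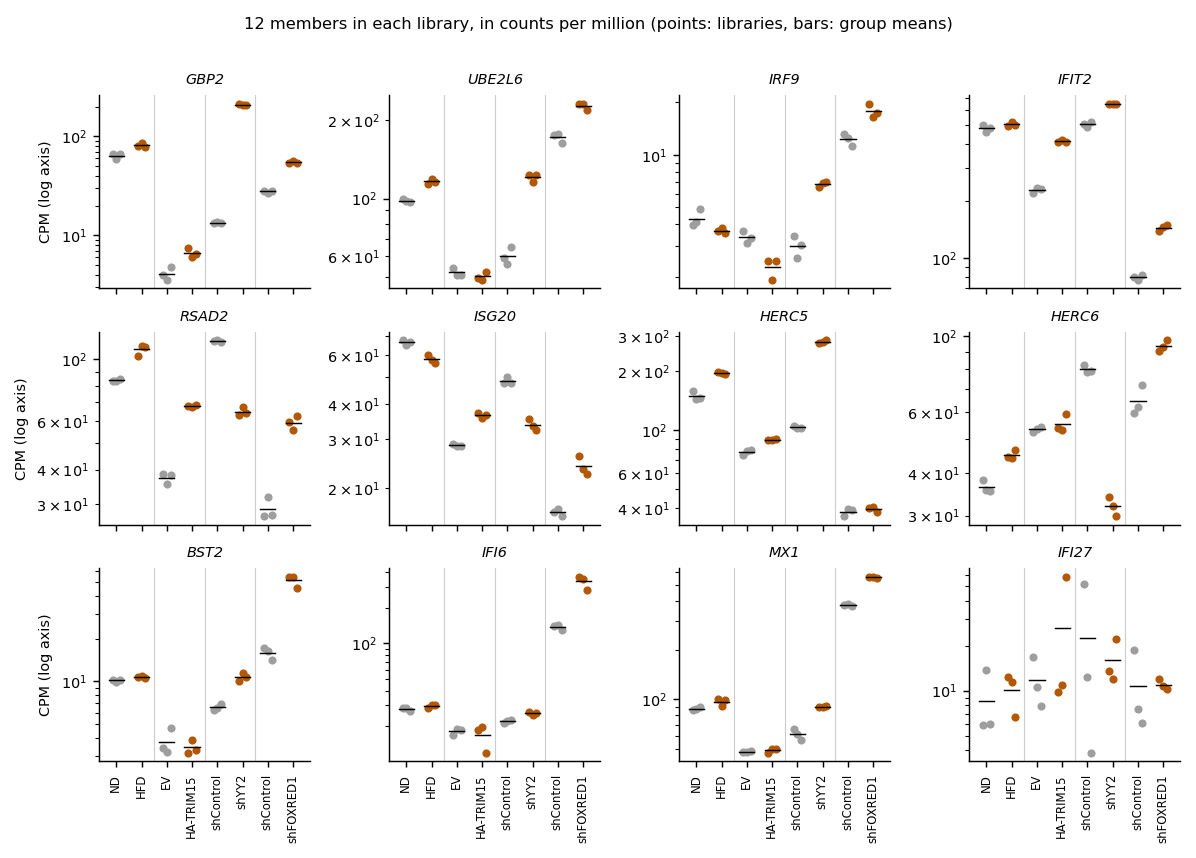
12 members in each of the 24 libraries (horizontal axis: groups in pairs of control in grey and treated in orange, vertical axis: CPM on a log scale), with points for libraries and bars for group means. GBP2 is highest with shYY2, IFI6 and MX1 are higher in both groups of the FOXRED1 experiment than in the other 6 groups, and IFI27 scatters within its groups.

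IFIT proteins bind viral RNA and block its translation, and their genes lie side by side. IFIT1 was at 287, 281 and 305 CPM with shFOXRED1 against 148, 155 and 148, and rose by 0.95 ± 0.05 on the log2 scale. With shYY2 it was at 323, 310 and 314 CPM against 231, 220 and 233 (0.47 ± 0.03). IFIT2 was the IFIT gene that differed most with HA-TRIM15, at 399, 410 and 398 CPM against 214, 227 and 225 (0.86 ± 0.03, adjusted p = 1.71e-10), while on the diets its groups overlapped (0.07 ± 0.04). IFIT3, which stabilises IFIT1 on RNA, was at 319, 309 and 330 CPM with shFOXRED1 against 178, 181 and 183, and at 356, 347 and 356 with shYY2 against 252, 255 and 259. IFIT5 rose with shFOXRED1 (0.36 ± 0.06) and HFD (0.23 ± 0.04), and with shYY2 it fell, from 63.2, 65.8 and 67.5 CPM to 59.3, 55.3 and 59.6 (-0.17 ± 0.04).

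IFITM proteins and BST2 act at membranes, where the former hinder viral fusion and the latter, tetherin, holds budding virions. IFITM3 was at 254, 251 and 241 CPM on HFD against 177, 176 and 166 on ND (0.52 ± 0.04), and at 235, 230 and 239 with shYY2 against 131, 131 and 141 (0.81 ± 0.03). With HA-TRIM15 its groups overlapped, at 121, 104 and 109 CPM against 118, 119 and 119, although without HA-TRIM15 replicate 1 it was called lower (-0.16). IFITM1 was at 19.7, 23.5 and 21.3 CPM with shYY2 against 7.3, 5.55 and 6.96, a fold of 3.24. BST2 showed the largest called change with shFOXRED1, at 55.2, 54.9 and 46 CPM against 17.2, 16.3 and 14.3, a fold of 3.27 (adjusted p = 7.22e-10), and with shYY2 it rose by 0.67 ± 0.10. The IFITM genes resemble each other, so reads may be split between them, and IFITM2 stood below 2 CPM in all libraries.

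Large GTPases of 2 families were on the list, the guanylate-binding proteins and the MX proteins. With shYY2 4 of 4 rose, where 36.8% of all genes were higher. GBP2, which coats and lyses pathogen vacuoles, was at 208, 204 and 207 CPM with shYY2 against 13.6, 13.8 and 13.4, a log2 fold change of 3.93 ± 0.04 or 15.23-fold (adjusted p = 2.66e-18), the largest of any member in any experiment. It also rose with shFOXRED1, from 28.4, 27.1 and 28.3 CPM to 55.1, 57.2 and 54.3, with HA-TRIM15 from 3.85, 3.47 and 4.65 to 7.21, 5.85 and 6.32, and on HFD from 67.6, 60.7 and 67.6 to 82.8, 87.6 and 80.5. GBP1 was at 46.3, 46.4 and 43.9 CPM with shYY2 against 17.8, 17.6 and 18.9 (1.33 ± 0.05). With shFOXRED1 GBP1 was at 50.7, 49.3 and 52 CPM against 45.7, 43.8 and 47.4, which did not pass without pairing (0.15, adjusted p = 0.0984) and passed with the replicate number as a block (0.15, adjusted p = 0.042). MX1, a dynamin-like inhibitor of viral nucleocapsids, was at 569, 567 and 561 CPM with shFOXRED1 against 377, 382 and 377 (0.58 ± 0.04), and at 87.9, 89 and 89.8 with shYY2 against 66.2, 62.2 and 56.9 (0.53 ± 0.05). Its level with HA-TRIM15 overlapped that with EV (0.04 ± 0.04).

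Of 8 effectors that act on RNA and nucleotides, 7 were higher with HA-TRIM15, where 12.5% of all genes were. With shYY2, 3 of 8 were higher and 3 lower, close to the shares of all genes (36.8% and 38.1%). RSAD2 (viperin), which makes a chain-terminating nucleotide, was at 65.9, 65.5 and 66.6 CPM with HA-TRIM15 against 37.5, 34.4 and 37 (0.86 ± 0.05). With shYY2 it fell from 117, 118 and 116 CPM to 61.9, 66.2 and 63.3 (-0.88 ± 0.03), and with shFOXRED1 it rose from 27.3, 32 and 27.8 CPM to 60.5, 56 and 63.2 (1.05 ± 0.08). The exonuclease gene ISG20 had the same directions in these 3 experiments: it rose with HA-TRIM15 from 28, 27.5 and 27.5 CPM to 36, 34.9 and 35.6, and with shFOXRED1 from 16.6, 16.9 and 16.1 to 26.5, 23.7 and 22.8. It fell with shYY2 from 48.1, 50.7 and 47.9 CPM to 34.8, 33.1 and 31.8, and on HFD from 69.2, 67.1 and 68.4 to 61.5, 58.9 and 57.6. SAMD9, a restriction factor for poxviruses, was at 479, 513 and 526 CPM with HA-TRIM15 against 353, 362 and 359 (0.50 ± 0.04) and at 382, 378 and 398 with shYY2 against 534, 542 and 590 (-0.53 ± 0.04). With shFOXRED1 it overlapped its control (0.02 ± 0.06). DDX60 and DDX60L, neighbouring helicase genes, had the largest called changes of the members on the diets: DDX60 was at 454, 453 and 452 CPM on HFD against 285, 266 and 269 on ND (0.73 ± 0.04, adjusted p = 1.01e-10), and DDX60L at 205, 207 and 196 against 123, 115 and 116 (0.78 ± 0.04). With shYY2 DDX60 rose, from 278, 271 and 272 CPM to 468, 460 and 474, whereas DDX60L overlapped its control (0.03 ± 0.03). DDX60L was the member called lower with shFOXRED1, at 284, 280 and 322 CPM against 315, 322 and 359 (-0.17, adjusted p = 0.0453). That call was lost when shFOXRED1 replicate 1 (-0.14) or 2 (-0.13), or shControl replicate 2 (-0.19) or 3 (-0.11), was left out, and also by DESeq2's Wald test (-0.16) and with at least 10 counts asked in every library (-0.15). OASL, an oligoadenylate synthetase-like protein that enhances RNA sensing, was at 264, 261 and 248 CPM with shYY2 against 196, 189 and 192 (0.42 ± 0.03), and at 147, 147 and 139 with HA-TRIM15 against 125, 118 and 126 (0.23 ± 0.04).

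PARP9 and DTX3L, which form an ADP-ribosyl and ubiquitin transferase complex, share a start region. With shFOXRED1 PARP9 was at 374, 380 and 409 CPM against 309, 315 and 332, and DTX3L at 629, 628 and 688 against 514, 487 and 534. With HFD PARP9 rose by 0.17 ± 0.03 and DTX3L by 0.21 ± 0.03, and with shYY2 by 0.14 ± 0.03 and 0.21 ± 0.03. PARP14, a mono-ADP-ribosyl transferase, was at 608, 605 and 628 CPM with shYY2 against 426, 411 and 417 (0.56 ± 0.03), and at 521, 524 and 521 on HFD against 418, 393 and 411. PARP10 and PARP12, of the same enzyme class, fell with shYY2, PARP10 from 102, 96.3 and 91.8 CPM to 83.3, 84.9 and 79.8 and PARP12 from 92.2, 87.1 and 84.3 to 70.9, 78.7 and 71. PARP10 was also called lower with HA-TRIM15 (-0.19, adjusted p = 0.0316), where its groups overlapped and the call was lost without EV replicate 1 (-0.19), EV replicate 3 (-0.17), HA-TRIM15 replicate 2 (-0.14) or HA-TRIM15 replicate 3 (-0.15). With shFOXRED1 PARP10 rose, from 174, 169 and 167 CPM to 255, 241 and 198 (0.45 ± 0.07).

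Of the 5 genes named for their induction by interferon, 1 was higher and 1 lower on HFD, 3 higher and 1 lower with shYY2 and 3 higher with shFOXRED1. Of all genes, 25.6% were higher and 23.9% lower on HFD, 36.8% and 38.1% with shYY2, and 16.8% and 19.7% with shFOXRED1. IFI6, which acts against apoptosis and viral replication, was at 370, 357 and 287 CPM with shFOXRED1 against 142, 145 and 132, a fold of 2.42, and rose by 0.18 ± 0.06 with shYY2. IFI44 was at 274, 269 and 251 CPM on HFD against 215, 201 and 206 (0.35 ± 0.04), and overlapped its control with shFOXRED1 (0.01 ± 0.05). IFI44L was at 520, 545 and 588 CPM with shFOXRED1 against 311, 326 and 329 (0.77 ± 0.05). IFI35 rose with shFOXRED1, from 61.1, 62.6 and 58.6 CPM to 94.8, 95.1 and 74.4, and fell on HFD, from 37.8, 41.3 and 36.6 CPM to 30.8, 29.6 and 28.4. With shYY2 IFI35 was called lower (-0.18), which was lost without shYY2 replicate 3 (-0.13) and by DESeq2's Wald test (-0.17, adjusted p = 0.079). IFI27 rested on single libraries, with 9.5, 10.6 and 56.4 CPM under HA-TRIM15 against 16.3, 10.3 and 7.68, and with 13.3, 11.8 and 22.1 CPM under shYY2 against 52.2, 12.4 and 3.88. With the count filter and all libraries it passed in none of the 4 experiments. Without a count filter it was called higher with HA-TRIM15 (1.14, adjusted p = 4.2e-42) and lower with shYY2 (-0.52, adjusted p = 2.31e-11). With shYY2 its log2 fold change was -0.51 with all, 0.99 without shControl replicate 1 and -1.05 without shControl replicate 3.

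SP100 and SP110, components of nuclear bodies, rose on HFD and in both knockdowns. SP100 was at 220, 231 and 241 CPM with shFOXRED1 against 179, 174 and 175, at 105, 105 and 106 with shYY2 against 89.3, 82.1 and 85.9, and at 111, 107 and 109 on HFD against 99.8, 92.8 and 96.5. CXCL10 and CXCL11, chemokines that attract T cells and NK cells, passed in none of the 3 experiments in which they were tested against their own control, although CXCL11 was called higher with HA-TRIM15 (0.82) without HA-TRIM15 replicate 1. CXCL10 was at 6.97, 6.72 and 6.56 CPM on HFD against 6.52, 6.4 and 6, and at 1.89, 2.64 and 2.54 with shYY2 against 2.47, 2.42 and 2.72. In the FOXRED1 experiment both chemokines were below 1 CPM in all 6 libraries and were not tested. PLSCR1, a membrane scramblase, was at 213, 215 and 206 CPM on HFD against 167, 166 and 173, and at 201, 206 and 198 with shYY2 against 146, 142 and 143. RTP4, a receptor chaperone, was at 15.5, 15.9 and 19 CPM with shYY2 against 4.83, 5.91 and 5.8 (1.61 ± 0.11), and at 23.8, 24.3 and 21.5 with shFOXRED1 against 11.4, 10.2 and 10.5 (1.12 ± 0.11). LGALS3BP, abundant throughout, rose with shFOXRED1 from 1020, 1030 and 977 CPM to 1250, 1240 and 1130 (0.26 ± 0.05), and without HA-TRIM15 replicate 1 it was called lower with HA-TRIM15 (-0.15), as it was with all libraries and no count filter (-0.11, adjusted p = 0.0184).

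Several neighbouring relatives did not keep a fixed ratio, while other pairs moved less. The log2 ratio of HERC5 to HERC6 was 0.355, 0.375 and 0.366 in the shControl libraries of the YY2 experiment and 3.029, 3.137 and 3.257 with shYY2, while in the FOXRED1 experiment it was -0.752 ± 0.116 in shControl and -1.249 ± 0.090 with shFOXRED1 (SD, n = 3). The log2 ratio of GBP2 to GBP1 moved from -0.412 ± 0.075 to 2.180 ± 0.052 with shYY2. That of SAMD9 to SAMD9L, 2 related genes side by side, moved from 2.112 ± 0.051 to 1.232 ± 0.028. RSAD2 and CMPK2, whose start regions overlap, parted too: their log2 ratio was 1.518 ± 0.054 in shControl and 0.564 ± 0.042 with shYY2, and 1.106 ± 0.107 in EV and 1.825 ± 0.103 with HA-TRIM15. The ratio of PARP9 to DTX3L stayed between -1.088 and -0.633 in the means of all 8 groups, and that of MX1 to MX2 between 1.326 and 1.875.

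**Figure D4:**
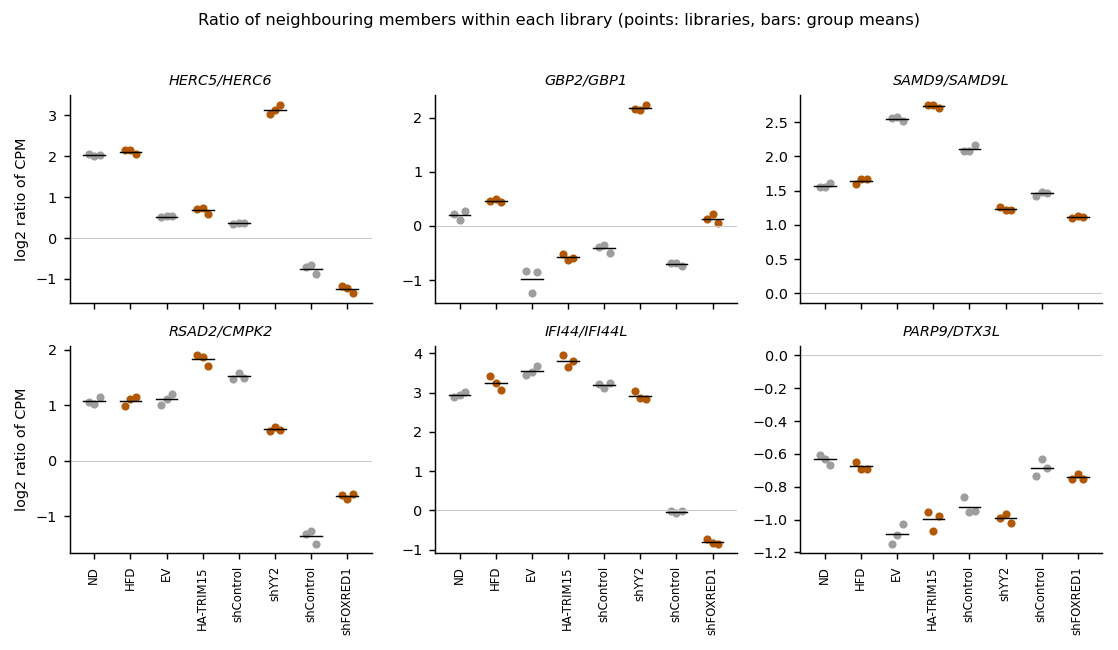
log2 ratio of CPM (vertical axis) between neighbouring members in each of the 24 libraries by group, with points for libraries and bars for group means. HERC5/HERC6 and GBP2/GBP1 stand apart with shYY2, while PARP9/DTX3L lies within -1.088 and -0.633 in its group means.

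A test of the difference between effects separated the knockdowns. In an edgeR quasi-likelihood fit over the libraries of both experiments, the shYY2 and shFOXRED1 effects differed for 38 of 49 members at an adjusted p under 0.05, with shYY2 higher for 16 and lower for 22, where 54.4% of all genes tested differed. GBP2 differed most, by 2.94 ± 0.08 on the log2 scale (adjusted p = 2.5e-17), followed by RSAD2 at -1.92 ± 0.08 and HERC6 at -1.91 ± 0.09. HERC5 (1.37 ± 0.07) and GBP1 (1.18 ± 0.08) were moved more by shYY2, and IFI6 (-1.09 ± 0.12) and BST2 (-1.04 ± 0.15) more by shFOXRED1. For MX1 the difference was -0.05 ± 0.06 and for SAMD9L -0.01 ± 0.08, neither past the threshold. The HA-TRIM15 and shYY2 effects differed for 37 of 49 members, with HA-TRIM15 higher for 9 and lower for 28, where 64.4% of all genes differed. RSAD2 was higher under HA-TRIM15 by 1.73 ± 0.06, SAMD9 by 1.02 ± 0.05 and ISG20 by 0.91 ± 0.07, whereas GBP2 was lower by -3.24 ± 0.13, UBE2L6 by -1.02 ± 0.07 and STAT2 by -0.82 ± 0.05. Each pair of effects came from separate experiments, so the treatment and the experiment cannot be told apart.

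**Figure D5:**
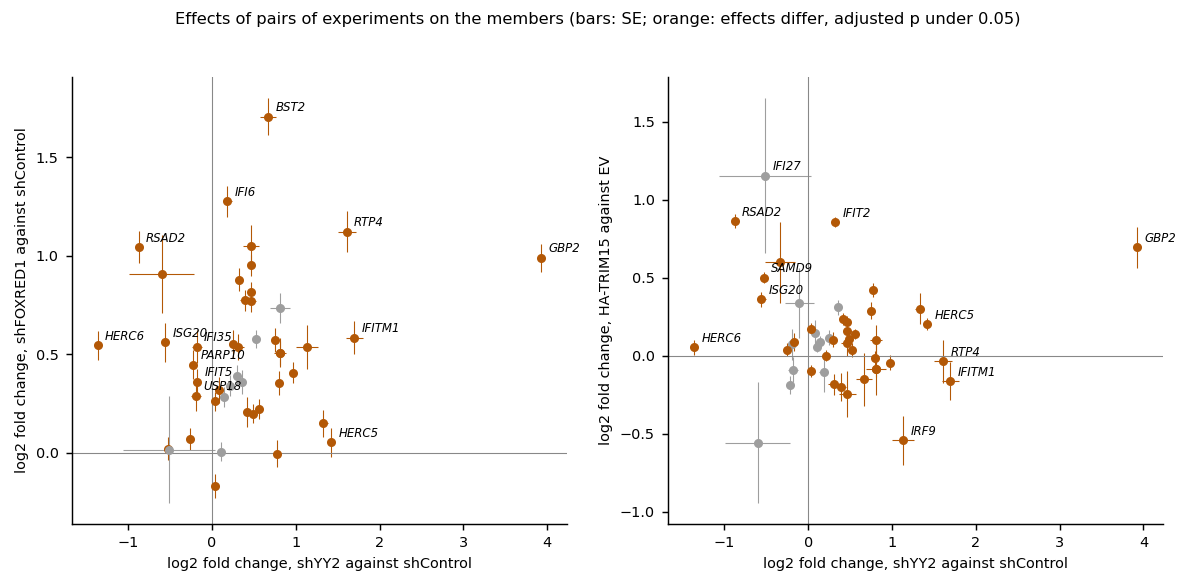
log2 fold change of the members with shYY2 (horizontal axes) against that with shFOXRED1 (left) and with HA-TRIM15 (right), with SE bars and orange points where the effects differed at an adjusted p under 0.05. RSAD2 lies at -0.88 with shYY2, 1.05 with shFOXRED1 and 0.86 with HA-TRIM15, and GBP2 lies far to the right at 3.93.

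Levels of the members in the control groups were compared next. The control libraries took part in the differences by which the list was chosen, so these levels are not independent of that choice. Between the shControl groups of the YY2 and FOXRED1 experiments, 12 members were higher and 33 lower in the former, where 35.5% of all 17135 genes tested were higher and 33% lower. IFI44L was at 24.2 ± 0.585 CPM (SD, n = 3) in the YY2 experiment and 324 ± 9.12 in the FOXRED1 experiment (log2 fold change -3.74, adjusted p = 2.76e-25), MX1 at 62 ± 4.75 and 381 ± 4.09, and IFI6 at 22.3 ± 0.707 and 141 ± 7.11. IFIT2 stood the other way, at 512 ± 14.8 and 80.5 ± 2.19 CPM (2.67), as did OASL at 193 ± 3.74 and 38.2 ± 2.02 and RSAD2 at 117 ± 1.14 and 29.2 ± 2.64. Both are the same cell line with a control hairpin. In ND xenografts against the mean of the 3 cultured controls, 24 members were higher and 20 lower, where 34.5% of all genes were higher and 31.9% lower. The test measured spread within groups and left out the spread between the 3 cultured controls. These calls therefore cannot be taken as differences between tumors and cultures in general. GBP2 was at 63.5 ± 4.01 CPM in ND tumors and 15.3 ± 10.5 over the cultured controls (2.43), OASL at 307 ± 2.06 and 120 ± 67.4 (1.64), and ISG20 at 66.3 ± 1.22 and 31.5 ± 14.2 (1.21). CXCL10 was at 6.13 ± 0.273 and 1.28 ± 1.05 CPM. IFI44L was lower in the tumors on the log2 scale (-1.04), but on a common normalization of all libraries its mean was 26.3 CPM in ND tumors and 19.7, 23.9 and 320 CPM in the EV cultures and the shControl cultures of the YY2 and FOXRED1 experiments, so that the FOXRED1 controls alone stood above the tumors.

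The other genes of the interferon pathway, 36 ligands, receptors, kinases, sensors and inhibitors, gave a base for these values. Ligands were scarce. IFNG had 0 counts in all 24 libraries, which allows up to 3 counts in each, IFNA2 had 1 count in all, and IFNB1 ran from 22 to 289 counts outside the FOXRED1 experiment and from 0 to 4 within it. The type III ligands IFNL1, IFNL2 and IFNL3 ran from 32 to 948 counts outside the FOXRED1 experiment and from 0 to 5 within it. On HFD IFNL1 was at 18.4, 19.4 and 19.8 CPM, IFNL2 at 10.5, 11.1 and 11.7 and IFNL3 at 13.2, 14.1 and 12.9. IFNL2 and IFNL3 are near-identical copies between which reads can be split. With HA-TRIM15 IFNL1 rose, from 2.61, 3.08 and 2.96 CPM to 6.48, 5.14 and 5.37 (0.98 in log2, adjusted p = 0.000143). With shYY2 IFNB1 fell (-1.11) and IFNL2 (0.63) and IFNL3 (0.65) rose. IFNE, an epithelial type I interferon, stood the other way among the controls, at 7.07 ± 0.0919 CPM (SD, n = 3) in the shControl libraries of the YY2 experiment and 15.9 ± 1.36 in those of the FOXRED1 experiment (log2 fold change -1.18, adjusted p = 7.72e-10 in edgeR). It fell in all 4 experiments, by 1.16 on HFD, 0.59 with HA-TRIM15, 1.44 with shYY2 and 0.38 with shFOXRED1 on the log2 scale.

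Of the pathway genes tested, 16 of 31 were higher and 4 lower on HFD, beside 25.6% and 23.9% of all genes. With HA-TRIM15 they were 12 of 31 and 3, beside 12.5% and 9.53%, and with shYY2 15 of 31 and 11, beside 36.8% and 38.1%. With shFOXRED1 they were 7 of 27 and 3, beside 16.8% and 19.7%. SOCS3, a feedback inhibitor of cytokine signaling, rose on HFD (1.37), with shYY2 (0.99) and with HA-TRIM15 (0.70). IFNGR1, a subunit of the interferon gamma receptor, fell with shYY2 (-0.97) and rose on HFD (0.35). The DNA sensor CGAS fell in both knockdowns (-0.85 with shYY2 and -0.68 with shFOXRED1) and rose on HFD (0.45), where its adaptor STING1 rose too (0.85). TLR3, a sensor of double-stranded RNA, rose with shFOXRED1 (1.12) and fell with shYY2 (-0.68), and ZBP1, a sensor of Z-form nucleic acids, did likewise (1.01 and -0.65). The RNA helicase gene IFIH1 rose with shFOXRED1 (0.48), with HA-TRIM15 (0.33) and with shYY2 (0.14), and did not pass on HFD (0.02).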

How the data were processed

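Bulk RNA-seq libraries of OE33 cells, 3 for each of 8 groups, were analysed from the raw counts per Ensembl gene that the authors deposited, 1 table for each experiment. The submitters' processing notes name the builds hg38 and mm10 with no role stated; the aligner and counter are not given in the sources used here. The labels and the study's methods name different library kits, so the use of strand is not settled, and reads of overlapping genes such as PARP9 and DTX3L may be split. Groups follow the sample labels. The 49 members, the 36 pathway genes and the 35 cell type markers were chosen with earlier results of these data known. Of the pathway genes, 1 is not reported here by name.

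Each treated group was compared with its own control by edgeR 4.0.16 (R 4.3.3): TMM scaling, filterByExpr with a minimum count of 10 and a minimum total of 15, the quasi-likelihood test, and Benjamini-Hochberg adjustment over all genes tested, with 0.05 as threshold. Calls are made for single genes in these fits. Differences between effects were tested as an interaction term over both experiments, and control levels in 1 fit of the 4 control groups. CPM values use TMM library sizes; the mean level of members is of log2(CPM + 1). Symbols were matched to Ensembl identifiers, and exon lengths for levels per kilobase taken, from GENCODE annotation (release 29). Counts from 14299807 to 45994561 per library limit precision to counting error at low genes. Per-library values are given for members fixed by role and for the 5 members with the largest called change in each direction in each experiment with a mean of at least 1 CPM; further members (HERC5, HERC6, IFIT5, PARP10, PARP12, IFI44L and DDX60L among them where outside that rule) were named after their values were seen. Pairs of neighbouring genes and the pathway genes named were chosen in the same way.

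The labels number the replicates 1 to 3 in every group without saying what a number shares. Over genes with a mean of at least 10 CPM, deviations of same-numbered libraries correlated at 0.211, 0.125 and 0.41 in the FOXRED1 experiment. There shFOXRED1 replicate 2 correlated best with shControl replicate 1, so pairing by number is not settled. All calls reported here come from fits without pairing, and a fit with the replicate number as a block is given as an alternative. Nothing in the labels says that the cultures, or the tumors behind the xenograft libraries, were separate. The p-values measure the spread between these libraries, which may be technical. Replicates differed by more than sampling noise, with chi-square per degree of freedom from 1.47 to 7.94. The fits were tested on simulated data. Alternatives were DESeq2 1.42.0 (its size factors and its Wald test), no filter, a stricter filter, a fold of 1.5, the replicate block and each library left out in turn. Promoter letters were searched with Python 3.11.15.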

Additional observations from a re-analysis of the deposited data

Results flagged for a closer look

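For 7 members the shYY2 and shFOXRED1 effects were both called and had opposite directions, and the difference itself passed the quasi-likelihood test of edgeR after Benjamini-Hochberg adjustment. All 7 were lower with shYY2 and higher with shFOXRED1. Of all genes tested, 54.4% differed between these effects, and the share called in opposite directions was not computed. The difference of the log2 fold changes, shYY2 minus shFOXRED1, was -1.9214 ± 0.0842 (SE) for RSAD2, -1.9087 ± 0.0904 for HERC6, -1.1203 ± 0.0997 for ISG20, -0.7228 ± 0.116 for IFI35, -0.6726 ± 0.0954 for PARP10, -0.5362 ± 0.0799 for IFIT5 and -0.481 ± 0.0929 for USP18. The adjusted p ran from 5.03e-14 for RSAD2 to 0.000146 for USP18. The shYY2 calls of IFI35 and USP18 were lost without shYY2 replicate 3, at -0.13 and -0.16, and by DESeq2's Wald test, at -0.17 and -0.18.

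For 4 members the HA-TRIM15 and shYY2 effects were both called and opposite. Here 64.4% of all genes tested differed, and again the share called in opposite directions was not computed. HA-TRIM15 minus shYY2 was 1.7289 ± 0.0555 for RSAD2 (adjusted p = 2.12e-16), 1.0171 ± 0.0541 for SAMD9, 0.9107 ± 0.0668 for ISG20 and -1.6834 ± 0.199 for IRF9 (adjusted p = 2.05e-07). The HA-TRIM15 call of IRF9 was lost without EV replicate 1 (-0.49), EV replicate 3 (-0.56) or HA-TRIM15 replicate 2 (-0.44). RSAD2 and ISG20 stand in both sets, with shYY2 as the shared effect. Treatment and experiment cannot be told apart in either contrast.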

How the results depend on the processing

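Of 2103 recomputed values of single members, 1987 kept their direction and their side of the threshold, 56 lost the call, 26 gained one and 34 turned direction, none of the latter a called member. Counts of calls stayed within 1.5 times the reported ones except where named here. Asking for a fold of at least 1.5 left 2 higher and 0 lower members on HFD, 3 and 0 with HA-TRIM15, 15 and 2 with shYY2 and 13 and 0 with shFOXRED1. For a fold of 1.5 the share of all genes was not computed. Members lower with HA-TRIM15 numbered 1 by DESeq2's Wald test and 0 to 5 with a library left out, and those lower with shFOXRED1 0 by that test and under the stricter filter and 0 to 1 with a library left out. Leaving out a library gave medians of 0.3273 to 0.3819 with shYY2 and 0.4617 to 0.5255 with shFOXRED1. With the replicate number as a block, 39 members were higher and 1 lower in the FOXRED1 experiment, GBP1 being the addition to the unpaired fit reported here. Elsewhere the block removed PLSCR1 with HA-TRIM15 (0.1085) and added IRF7 with shYY2 (-0.5997), and it changed no other member's call. The cause of these shifts was not tested.

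With a library left out, values of uncalled members crossed 0. The ranges with HA-TRIM15 were -0.2649 to 0.06093 for BST2, -0.02393 to 0.03061 for DTX3L, -0.1664 to 1.594 for IFI27, -0.2194 to 0.08049 for IFI6, -0.8829 to 0.1776 for IRF7, -0.1651 to 0.07754 for RTP4, -0.03547 to 0.02613 for STAT2, -0.04352 to 0.1826 for USP18 and -0.2024 to 0.04658 for XAF1. On HFD they were -0.08783 to 0.7352 for IFI27 and -0.4452 to 1.276 for IRF7. With shYY2 they were -0.1882 to 0.02807 for CXCL10 and -1.048 to 0.9941 for IFI27. With shFOXRED1 they were -0.1008 to 0.04674 for DDX60, -0.2609 to 0.6954 for IFI27, -0.01813 to 0.03721 for IFI44 and -0.0653 to 0.07474 for SAMD9. DTX3L with HA-TRIM15 also turned with DESeq2's size factors (-0.000135), no filter (-0.0118) and DESeq2 (-8.748e-06), and DDX60 with shFOXRED1 under the stricter filter (0.008635). The median of all genes with shFOXRED1 was 0.1009 without a count filter and 0.0116 with it. Depth limits IRF7, IRF9, IFITM2, CXCL10 and CXCL11 most, each at a few CPM or less in most groups.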
